A study of Mus musculus with 6 samples.

Results

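The genes described here are 42 genes of the cell cycle and of DNA replication, chosen by symbol from a list of cyclins, cyclin-dependent kinases, replication proteins, mitotic proteins and cell cycle inhibitors. All 42 symbols matched 1 Ensembl gene each among the 55421 genes counted, and all 42 were among the 15209 genes with enough counts to be tested. They were read by role: 16 genes of S phase and replication, 15 of G2 and mitosis (G2/M), 5 cyclins and kinases of G1, and 6 inhibitors. RNA-seq was done on whole corneas of mice aged 20 weeks, in 3 libraries of mice with a heterozygous Pax6 mutation (M1, M2 and M3) and 3 libraries of wildtype mice (W1, W2 and W3). The series design calls the 3 libraries of each genotype biological replicates and names 1 contrast, mutant against wildtype. The labels name neither the mutant allele nor the strain, nor whether a library holds 1 cornea or several, and they name no treatment for either genotype.

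The corneal epithelium is renewed throughout life by division of its basal cells, which are fed by stem cells at the limbus, the rim of the cornea. In G1, D-type cyclins with Cdk4 or Cdk6 phosphorylate the retinoblastoma protein, which releases E2F transcription factors, and cyclin E with Cdk2 then drives entry into S phase. DNA is copied by a machinery built on the Mcm helicase, and cyclin B with Cdk1, Plk1 and the Aurora kinases carry the cell through mitosis, while inhibitors such as p21 (Cdkn1a) and p27 (Cdkn1b) hold cyclin-kinase complexes back. Pax6 is the transcription factor that controls development and upkeep of the corneal epithelium.

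Many S phase promoters carry E2F sites, and many promoters of mitotic genes carry a CHR element (cell cycle genes homology region) with CCAAT boxes, so the letters of the members' promoters were read before their RNA levels. RefSeq windows on GRCm38.p6, from 250 bases before to 50 bases after the start of a gene, were matched for 33 of the 42 members. Windows for Aurkb, Ccna2, Ccnd1, Ccnd2, Ccne2, Cdkn1c, Mcm4, Rb1 and Tpx2 were not used here. The following 5 windows, printed 5′ to 3′ on the gene's strand, were chosen to show each kind of element. Capitals mark E2F letters in Mcm5 and Mcm6, E2F and CHR letters in Cdk1, CHR letters in Plk1 and a p53 response element in Cdkn1a.
Mcm5, chr8:75109259-75109558, plus strand: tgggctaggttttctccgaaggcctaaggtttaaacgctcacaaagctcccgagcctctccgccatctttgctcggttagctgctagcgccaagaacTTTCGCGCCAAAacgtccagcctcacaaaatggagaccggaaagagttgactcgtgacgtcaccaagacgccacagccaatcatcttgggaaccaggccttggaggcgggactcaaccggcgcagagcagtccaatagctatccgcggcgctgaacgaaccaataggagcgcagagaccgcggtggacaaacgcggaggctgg
Mcm6, chr1:128359656-128359955, minus strand: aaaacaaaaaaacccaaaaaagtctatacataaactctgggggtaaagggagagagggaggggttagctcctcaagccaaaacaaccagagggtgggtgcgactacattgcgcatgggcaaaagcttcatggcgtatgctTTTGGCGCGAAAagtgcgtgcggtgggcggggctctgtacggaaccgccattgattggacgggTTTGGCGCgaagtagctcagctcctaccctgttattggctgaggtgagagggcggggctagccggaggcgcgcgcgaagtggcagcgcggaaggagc
Cdk1, chr10:69352863-69353162, minus strand: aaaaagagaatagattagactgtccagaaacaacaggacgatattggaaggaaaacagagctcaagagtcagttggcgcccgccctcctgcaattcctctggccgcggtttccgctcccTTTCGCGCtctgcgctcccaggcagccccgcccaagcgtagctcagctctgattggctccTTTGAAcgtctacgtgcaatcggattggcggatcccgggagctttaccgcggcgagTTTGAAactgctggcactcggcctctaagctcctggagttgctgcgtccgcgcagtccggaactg
Plk1, chr7:122159185-122159484, plus strand: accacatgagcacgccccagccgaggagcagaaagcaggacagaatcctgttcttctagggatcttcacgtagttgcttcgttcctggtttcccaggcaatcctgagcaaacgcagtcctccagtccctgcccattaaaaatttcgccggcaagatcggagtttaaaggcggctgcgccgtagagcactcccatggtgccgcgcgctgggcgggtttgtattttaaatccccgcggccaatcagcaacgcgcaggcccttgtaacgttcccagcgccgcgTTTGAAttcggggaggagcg
Cdkn1a, chr17:29090729-29091028, plus strand: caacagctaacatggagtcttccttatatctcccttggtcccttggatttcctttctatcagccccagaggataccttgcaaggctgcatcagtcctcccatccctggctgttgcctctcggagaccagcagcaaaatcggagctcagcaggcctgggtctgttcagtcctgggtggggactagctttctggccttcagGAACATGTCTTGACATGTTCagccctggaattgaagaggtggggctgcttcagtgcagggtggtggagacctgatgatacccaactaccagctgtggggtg

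The E2F letters searched on both strands were TTTCCCGC, TTTGGCGC, TTTCGCGC and TTTGCCGC. They were found in 6 of the 14 S phase genes with a window (42.9%: Cdc6, Cdk2, Mcm3, Mcm5, Mcm6 and Mcm7) and in 1 of the 12 G2/M genes (Cdk1), against 2.6% of all 27025 genes with a window (2.26% of 32851 windows). Of the 4 inhibitors with a window 1 held E2F letters (Cdkn2a), and of the 3 G1 genes 0. In Mcm5, which encodes a subunit of the Mcm helicase, a pair of overlapping matches on opposite strands began 153 and 149 bases before the start. In Mcm6, another helicase subunit, matches began 110, 106 and 47 bases before the start. The CHR letters TTTGAA, searched on both strands, were found in 9 of the 12 G2/M genes (75%), in 2 of the 14 S phase genes and in 20.2% of all genes (17.9% of windows). The 9 were Aurka, Bub1b, Ccnb2, Cdc20, Cdk1, Kif11, Mki67, Plk1 and Top2a. Of the 4 inhibitors with a window 1 held CHR letters (Cdkn2b), and of the 3 G1 genes 0. CCAAT boxes, also on both strands, were in 11 of the 12 G2/M genes (91.7%), in 10 of the 14 S phase genes (71.4%) and in 41.1% of all genes (37.4% of windows). In Cdk1, the mitotic kinase, an E2F match began 131 bases before the start and CHR matches 71 and 15 bases before it. In Plk1, a kinase of mitotic entry and spindle assembly, the CHR match began at base 31 after the start. A p53 response element, 2 adjoining half-sites with at most 1 of 20 positions unmatched, was present in Cdkn1a alone of the 33 members, in 1 of its 2 windows and 51 bases before that start, and in 0.107% of all genes (0.0883% of windows). A match describes letters in a window and shows no binding, and windows of 1 role were not tested against the rest.

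The 6 libraries held 16858005 to 21846406 counts in genes. Pax6 itself was at 454, 394 and 356 CPM (counts scaled to the size of the library by TMM, the trimmed mean of M-values) in M1, M2 and M3 and at 849, 746 and 774 CPM in W1, W2 and W3. The groups did not overlap, and Pax6 fell by 0.98 on the log2 scale (SE 0.14, adjusted p = 0.0042 by the quasi-likelihood test of edgeR, adjusted by Benjamini-Hochberg over all genes tested, as is every adjusted p below), which follows the labels. W1 lay apart from the other libraries on the first principal component (50.1% of the variance). M1 was the only library with abundant Xist RNA (18628 counts, against 0 to 12 in the others) and without RNA of Y-linked genes. M1 thus had a female and the other libraries a male pattern of these RNAs. The labels name no sex, and its part in the members' values was not tested. The epithelial keratin gene Krt12, a marker of the cornea, was high in all libraries, at 4145 to 7163 CPM in mutant and 15314 to 21773 CPM in wildtype.

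Of the 42 members, 2 fell in mutant cornea and 0 rose. The 2 were Ccnd1, which encodes cyclin D1, and Cdkn1a, which encodes the inhibitor p21, each about 1.8 times higher in wildtype. They are 4.76% of the members, against 4.46% of all genes tested that were called lower, 5.59% called higher and 10.1% called in either direction, so the share called lower was near the background and the share called higher was below it. At an unadjusted p under 0.05 there were 4 members: Ccnd1, Cdkn1a, Kif11 and Rb1. Every gene called at an adjusted p under 0.05 is also below 0.05 unadjusted. The share over all genes tested was thus at least 10.1%, and these 4 of 42 were no excess over it. The median log2 fold change (mutant minus wildtype) over the members was 0.11, with 28 above 0 and 14 below, against a median of 0.01 over all genes tested. The libraries of the genotypes did not overlap for 2 members that were higher in mutant (4.76%, Kif11 and Cdk4) and 4 that were lower (9.52%, Ccnd1, Cdkn1a, Cdkn2a and Rb1). Over all genes tested those shares were 17.1% and 14.7%. The 95% interval of the fold change lay within a 2-fold change in either direction for 23 members and reached past it for 19. Of all genes tested, 45.5% had an interval within a 2-fold change. For the other 40 members a difference was not detectable by this test, which does not show that their levels were alike.

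**Figure D1:**
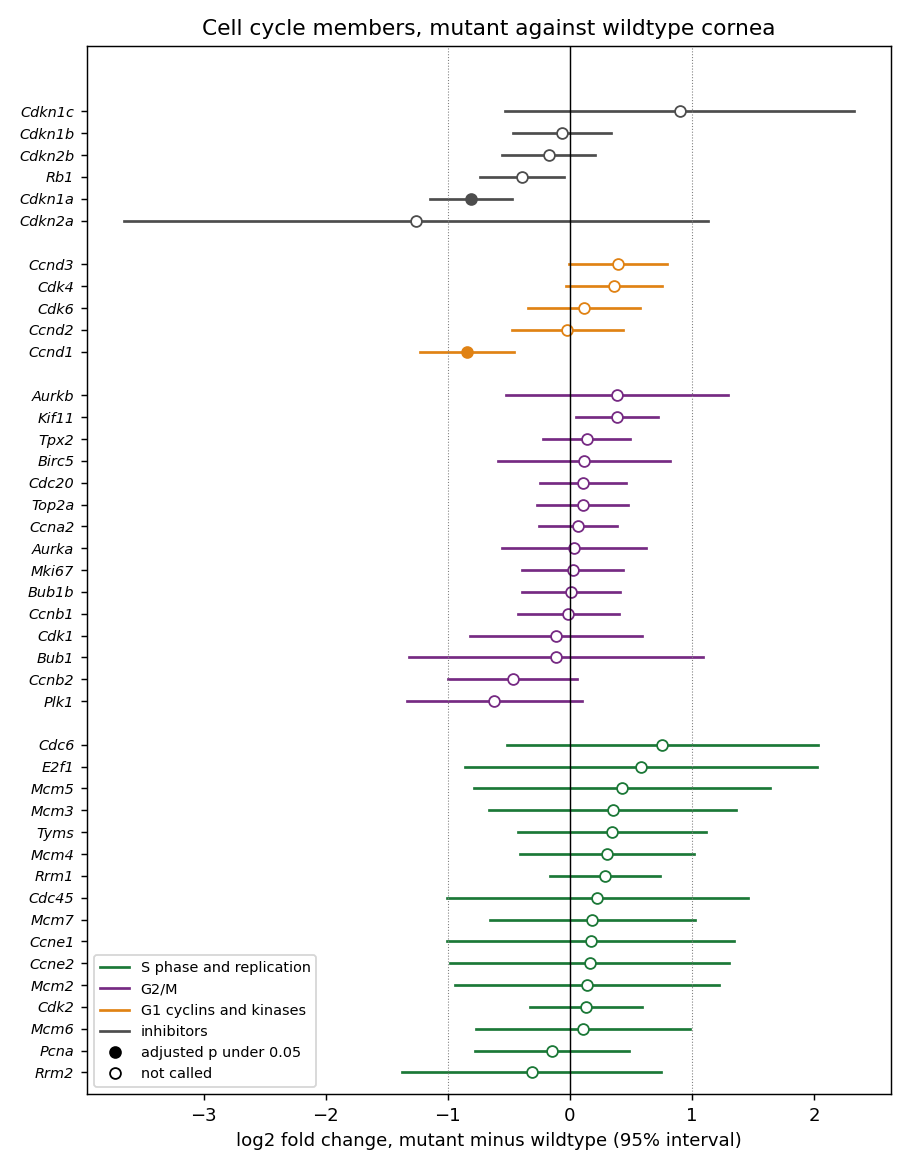
Each point is the log2 fold change of 1 member, mutant minus wildtype (horizontal axis), with its 95% interval as a line, sorted within the 4 roles. The 2 filled points, Ccnd1 at -0.84 and Cdkn1a at -0.81, passed an adjusted p of 0.05, and dotted lines stand at a 2-fold change in each direction. Intervals of S phase genes are wider than those of most G2/M genes.

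The members were also ordered by level per kilobase of exon, counting every annotated exon of a gene. That length can exceed the length of the transcript present, so the order is rough. In CPM without regard to length, Mki67 (317) stood above Ccnd1 (281) in wildtype. In wildtype the highest mean level was that of Ccnd1 at 59.7 CPM per kilobase, followed by Mki67 at 31.5, Cdkn2b at 26.3, Cdkn1a at 20.3, Cdkn1b at 17.5 and Ccnd2 at 16.1. In mutant the mean level was 33.3 CPM per kilobase for Ccnd1 and 32.02 for Mki67, while Cdkn2b was at 23.3 and Cdkn1a at 11.6. The lowest wildtype levels per kilobase were those of Cdc6 at 0.65, E2f1 at 0.79 and Cdc45 at 0.81. Levels within a role were far apart: among the S phase genes Mcm6 was at 10.4, among the D-type cyclins Ccnd3 was at 2.97, and among the inhibitors Cdkn2a was at 1.28. Neighbours in this order were not tested against each other.

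**Figure D2:**
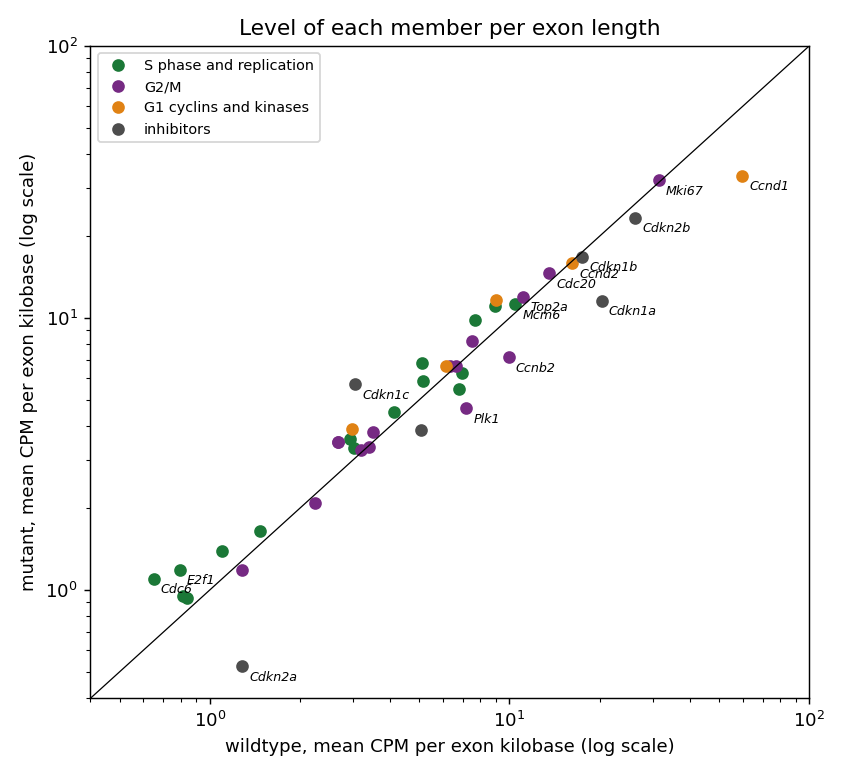
Mean level of each of the 42 members in wildtype (horizontal axis) and mutant (vertical axis), in CPM per exon kilobase on log scales, coloured by role, with the line of equal levels. Ccnd1 (59.7 in wildtype, 33.3 in mutant) and Cdkn1a (20.3 and 11.6) lie below the line, and Mki67 (31.5 and 32.02) lies on it.

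Among the G1 genes, Ccnd1 fell and the other 4 did not pass the test. The share called lower was 20%, against 4.46% of all genes tested. Resting on 1 gene, it was not read as an excess. Cyclin D1 is the D-type cyclin that many growth signals induce, and its gene lies at chr7:144929931-144939925 on the minus strand (GRCm38). Ccnd1 was at 336, 283 and 225 CPM in W1, W2 and W3 and at 145, 176 and 149.7 CPM in M1, M2 and M3. Every mutant library was below every wildtype library, and the wildtype libraries were the more widely spread. The means were 281 ± 55.6 CPM in wildtype and 157 ± 16.4 CPM in mutant (SD, n = 3), a level 1.79 times higher in wildtype. The log2 fold change was -0.84 (SE 0.17, 95% interval -1.23 to -0.46, adjusted p = 0.018, edgeR's quasi-likelihood test). The call was lost without M1 (adjusted p = 0.0792), without M3 (0.0972) and without W2 (0.0579), and over all alternatives the adjusted p ran from 6.29e-06 to 0.263 with a log2 fold change of -1.004 to -0.66. In a bulk library, fewer cells of a type and less RNA per cell cannot be told apart.

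Ccnd2 and Ccnd3 encode the other D-type cyclins. Ccnd2 was at 145, 138 and 166 CPM in M1, M2 and M3 and at 199, 142 and 115 CPM in W1, W2 and W3, with the mutant libraries inside the wildtype range. Its log2 fold change was -0.02 (95% interval -0.48 to 0.44, adjusted p = 0.966). Ccnd3 stood at 38.0, 27.2 and 37.6 CPM in M1, M2 and M3 and at 28.9, 23.5 and 25.8 CPM in W1, W2 and W3. M1 and M3 were above all wildtype libraries and M2 was below W1, and the log2 fold change of 0.39 (SE 0.18, adjusted p = 0.22) did not pass the test. Ccnd1 thus was the most abundant D-type cyclin per kilobase in both genotypes, and the summed level of the 5 G1 genes was 455 to 489 CPM in mutant and 470.0 to 702 CPM in wildtype.

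Cdk4 and Cdk6 are the kinases that D-type cyclins activate. Cdk4 was at 34.9, 40.2 and 38.0 CPM in M1, M2 and M3 and at 22.9, 33.5 and 31.6 CPM in W1, W2 and W3. All mutant libraries were above all wildtype libraries, M1 and W2 by little, and the log2 fold change of 0.36 (SE 0.17, adjusted p = 0.251) did not pass. Cdk6 was at 92.0, 89.8 and 97.7 CPM in mutant and at 116, 69.2 and 73.0 CPM in W1, W2 and W3, so that W1 lay above and the other wildtype libraries below the mutant ones. Its log2 fold change was 0.12 (SE 0.20, adjusted p = 0.783) and changed sign without W2 or W3.

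Among the inhibitors, Cdkn1a fell and the other 5 did not pass. The share called lower was 16.7%, against 4.46% of all genes tested, and with 1 gene called it was not read as an excess. The median log2 fold change of the 6 was -0.28, with 5 below 0, and their summed level was 185 ± 12.8 CPM in mutant and 227 ± 16.9 CPM in wildtype (SD, n = 3). Cdkn1a (chr17:29090976-29100727, plus strand) is a direct target of p53 and the gene whose promoter window is printed above with a p53 response element. It was at 80.6, 62.0 and 73.8 CPM in W1, W2 and W3 and at 40.1, 46.1 and 37.3 CPM in M1, M2 and M3. The groups lay apart, with W2 the lowest wildtype and M2 the highest mutant library. The means were 72.2 ± 9.40 CPM in wildtype and 41.2 ± 4.46 CPM in mutant (SD, n = 3), 1.75 times higher in wildtype. The log2 fold change was -0.81 (SE 0.15, 95% interval -1.15 to -0.48, adjusted p = 0.0119, edgeR's quasi-likelihood test). The call was lost without M1 (adjusted p = 0.0507) and without M3 (0.0627), and over all alternatives the adjusted p ran from 3.90e-05 to 0.257 with a log2 fold change of -0.91 to -0.72.

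**Figure D3:**
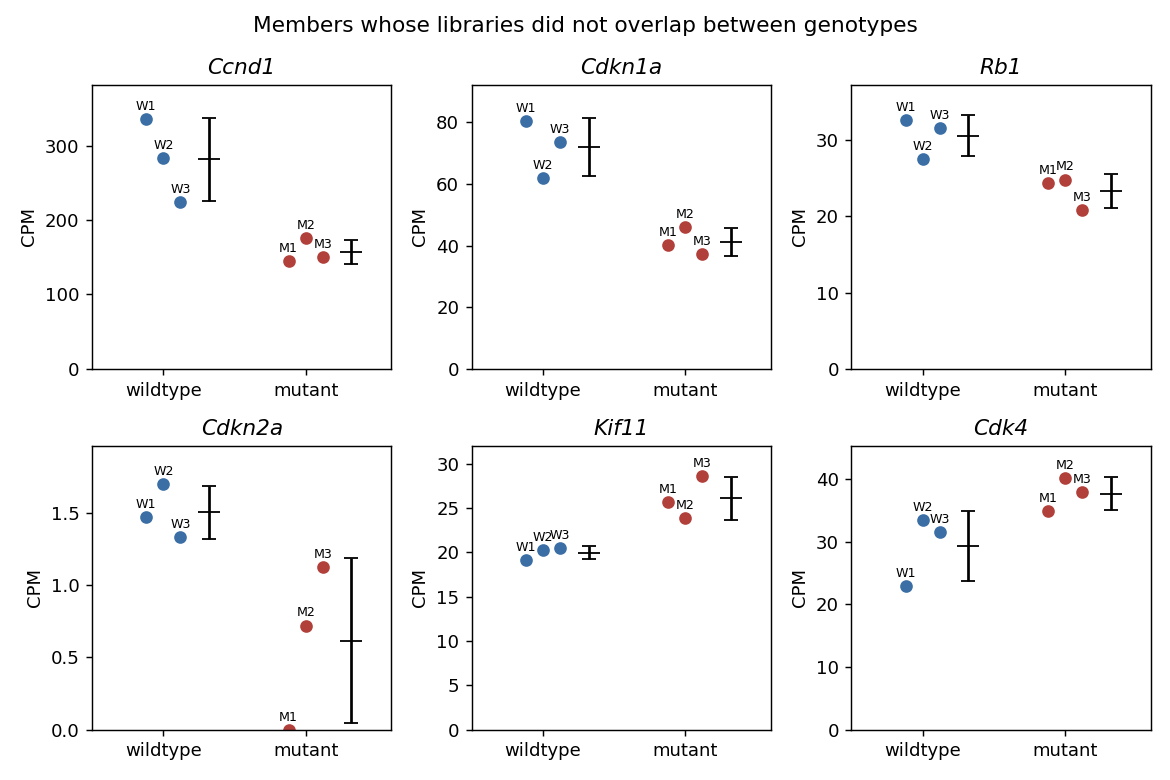
Level in CPM (vertical axes, from 0) of the 6 members whose libraries did not overlap between genotypes. Points are libraries, and the bar beside them is the mean with its SD over 3 libraries. Ccnd1, Cdkn1a, Rb1 and Cdkn2a were lower in all mutant libraries, Kif11 and Cdk4 were higher, and of the 6 only Ccnd1 and Cdkn1a passed the test.

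Rb1, which encodes the retinoblastoma protein, was at 24.3, 24.8 and 20.8 CPM in M1, M2 and M3 and at 32.6, 27.5 and 31.5 CPM in W1, W2 and W3. Each mutant library was below each wildtype one, but the log2 fold change of -0.39 (SE 0.15, adjusted p = 0.154) did not pass. Cdkn2a, whose products p16 and p19 act on Cdk4 and Cdk6 and on p53, had 0, 13 and 25 counts in M1, M2 and M3 and 26, 30 and 25 counts in W1, W2 and W3. In CPM all mutant libraries were lower, with M1 at 0, and the log2 fold change of -1.26 had an SE of 1.04 (adjusted p = 0.53). Cdkn2b, which encodes the Cdk4 and Cdk6 inhibitor p15 and was the most abundant inhibitor per kilobase, was at 28.0, 36.6 and 32.5 CPM in mutant and at 32.3, 42.4 and 35.0 CPM in wildtype. These ranges overlapped (log2 fold change -0.18, SE 0.16, adjusted p = 0.587).

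The p27 gene Cdkn1b was at 89.2, 68.7 and 71.0 CPM in M1, M2 and M3 and at 65.5, 76.6 and 97.0 CPM in W1, W2 and W3, and the genotypes overlapped throughout (log2 fold change -0.06, adjusted p = 0.873). Cdkn1c, which encodes the related inhibitor p57, was at 16.1, 9.38 and 9.41 CPM in M1, M2 and M3 and at 1.31, 10.3 and 7.11 CPM in W1, W2 and W3. M1 was the highest library and W1 by far the lowest, and the log2 fold change of 0.90 had an SE of 0.62 (adjusted p = 0.445). Cdkn1c was the only inhibitor whose mutant mean was above the wildtype mean.

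The 16 S phase genes gave 0 calls in either direction, against 10.1% of all genes tested, and spread widely between libraries of 1 genotype. By edgeR's quasi-likelihood test 0 of them stood at an unadjusted p under 0.05 as well. DESeq2 and limma-voom, also with sample quality weights, called 0 at an adjusted p of 0.05. The median log2 fold change was 0.20, with 14 above 0, and the range was -0.31 (Rrm2) to 0.76 (Cdc6). The median coefficient of variation was 33.1% among mutant and 51.3% among wildtype libraries, against 17.9% and 22.8% over all genes tested. Their median SE was 0.45 on the log2 scale. The 95% interval lay within a 2-fold change for 4 of the 16, against 45.5% of all genes tested.

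The summed level of the 16 S phase genes was 221, 393 and 385 CPM in M1, M2 and M3 and 417, 284 and 170.5 CPM in W1, W2 and W3, or 333 ± 97.1 against 290.5 ± 123 CPM (SD, n = 3). The highest and the lowest library were both wildtype, and M1 was the lowest mutant library. W3 had the lowest level of the 6 libraries for 12 of the 16 genes and M1 for the other 4. The highest was W1 for 7, M2 for 5 and M3 for 4. Relative to the mean of the 6 libraries on the log2 scale, the median S phase gene stood at 0.57 in W1, 0.02 in W2 and -0.87 in W3, and at -0.40, 0.42 and 0.37 in M1, M2 and M3. The genes of replication went up and down together from library to library, by more than the genotypes differed.

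**Figure D4:**
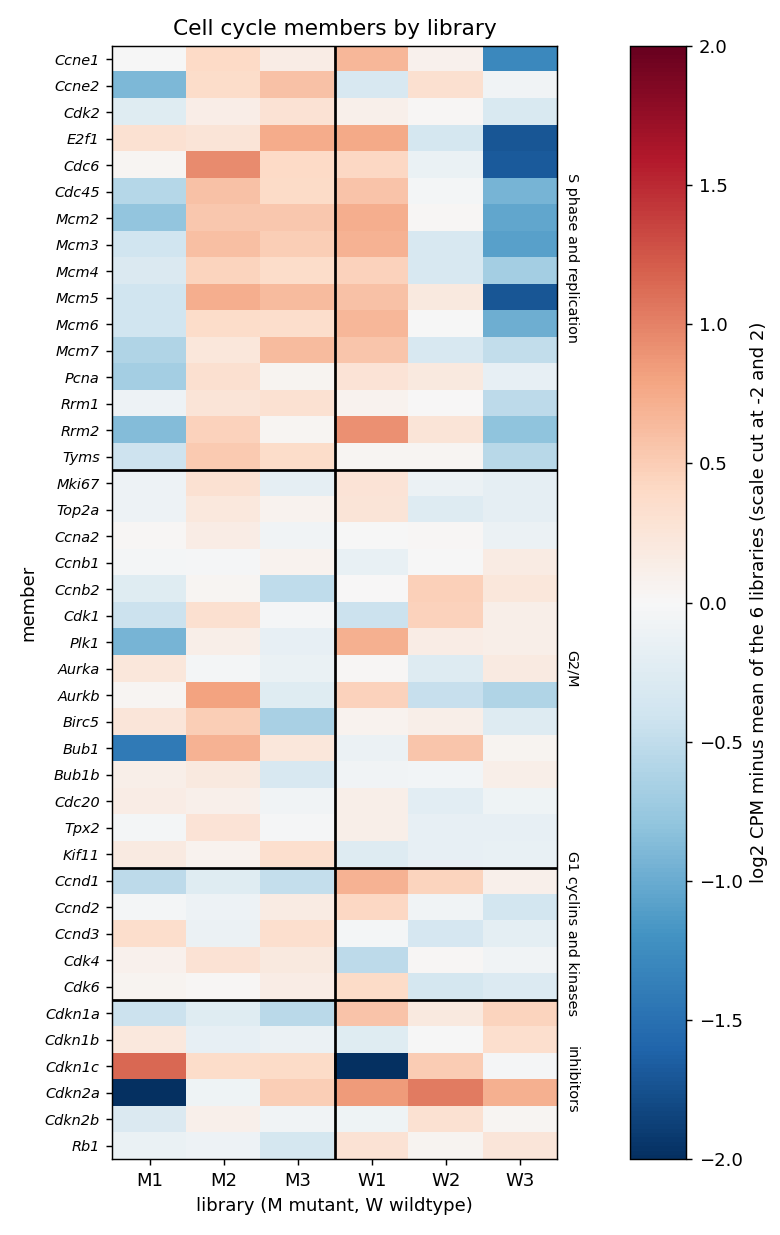
Level of each member (rows, grouped by role) in each library (columns), as log2 CPM minus the mean of the 6 libraries, red above and blue below it, with the scale ending at -2 and 2. Most S phase rows are blue in M1 and W3 and red in M2, M3 and W1, with a median of -0.87 in W3 and 0.57 in W1, while the G2/M rows show no such shared pattern.

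The Mcm genes encode the hexameric helicase that is loaded at origins in G1 and unwinds DNA in S phase. Mcm6 had the highest level per kilobase among the S phase genes, at 35.9, 60.9 and 60.4 CPM in M1, M2 and M3 and at 74.9, 47.2 and 24.1 CPM in W1, W2 and W3. All mutant libraries lay between W1 and W3, and the log2 fold change of 0.11 (SE 0.38, adjusted p = 0.906) changed sign without M2, M3 or W3. Mcm5 was at 15.7, 34.3 and 32.1 CPM in mutant and at 31.1, 23.7 and 6.26 CPM in W1, W2 and W3 (log2 fold change 0.43, SE 0.53, adjusted p = 0.69). Mcm2 ran from 15.7 to 39.3 CPM in mutant and from 13.1 to 44.9 CPM in wildtype. For Mcm3, Mcm4 and Mcm7 the log2 fold changes were 0.35, 0.30 and 0.18, each with overlapping groups, and the highest library was W1 for Mcm3 and Mcm4 and M3 for Mcm7. Cdc6, the loader that brings the helicase to origins, was at 4.10, 7.82 and 5.31 CPM in M1, M2 and M3 and at 5.39, 3.63 and 1.18 CPM in W1, W2 and W3. W3 was far below the other libraries, and the log2 fold change of 0.76 (SE 0.55, adjusted p = 0.472) did not pass. Cdc45, which activates the helicase, ran from 1.90 to 4.33 CPM in mutant and from 1.44 to 4.31 CPM in wildtype.

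Among the enzymes that supply nucleotides, Rrm1 had the smallest SE of all S phase genes. Rrm1, the large subunit of ribonucleotide reductase, was at 33.0, 42.2 and 43.5 CPM in M1, M2 and M3 and at 37.1, 35.7 and 24.4 CPM in W1, W2 and W3. M1 was below both W1 and W2, and the log2 fold change was 0.29 (SE 0.20, 95% interval -0.16 to 0.74, adjusted p = 0.436). Tyms, which makes thymidylate, was at 5.51, 10.5 and 9.45 CPM in M1, M2 and M3 and at 7.55, 7.55 and 4.97 CPM in W1, W2 and W3. Its log2 fold change was 0.35 (SE 0.33, adjusted p = 0.599), with M1 inside the wildtype range. Rrm2, the small reductase subunit that cycles with S phase, and Pcna, the sliding clamp of the replication fork, were the only 2 of the 16 with a fold change below 0 (-0.31 and -0.15, adjusted p = 0.744 and 0.805).

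Of the regulators of S phase entry, the E-type cyclins and E2f1 were low, while Cdk2 stood higher. Ccne1 and Ccne2, the E-type cyclins, ran from 1.5 to 6.13 CPM and from 1.53 to 4.46 CPM over the 6 libraries, and their log2 fold changes were 0.17 and 0.16. Cdk2, their kinase, was at 16.6 to 24.0 CPM in mutant and 15.8 to 21.1 CPM in wildtype, with a log2 fold change of 0.13 (95% interval -0.33 to 0.59). E2f1, the activator of S phase promoters, ran from 3.27 to 4.59 CPM in mutant and from 0.75 to 4.65 CPM in wildtype (log2 fold change 0.58, SE 0.63, adjusted p = 0.642).

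What the S phase genes showed depended on M1, W1 and W3. Their median log2 fold change of 0.20 became 0.48 without M1, 0.60 without W1 and -0.01 without W3. W1 held the highest summed S phase level of the wildtype libraries and M1 the lowest of the mutant ones. With both left out, an alternative chosen after seeing the data, the median was 0.79 and Mcm3, Mcm4 and Mcm7 were called higher in mutant. Leaving out the highest wildtype and the lowest mutant library raises the S phase difference by construction, so no conclusion is drawn from these calls. With sample quality weights in limma-voom the median was 0.63, and 0 were called. With these weights 13 of the 42 members, against 4 in the main fit, were at an unadjusted p under 0.05. Over all genes tested the weights called 1202 higher and 983 lower.

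The 15 G2/M genes also gave 0 calls, against 10.1% of all genes tested, but with less spread. Only Kif11 was at an unadjusted p under 0.05, and DESeq2 and limma-voom called 0. Their median log2 fold change was 0.03, with 10 above 0, and ran from -0.62 (Plk1) to 0.39 (Aurkb and Kif11). The median SE was 0.18. The 95% interval lay within a 2-fold change for 12 of the 15, against 4 of the 16 S phase genes and 45.5% of all genes tested. Their summed level was 612, 770.4 and 597 CPM in M1, M2 and M3 and 736, 599.5 and 589 CPM in W1, W2 and W3, or 660 ± 96.1 against 642 ± 81.9 CPM (SD, n = 3). These sums overlapped, with M2 and W1 the 2 highest libraries.

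Mki67, whose product Ki-67 coats mitotic chromosomes and marks cycling cells, was at 295, 393 and 279 CPM in M1, M2 and M3 and at 381, 290.2 and 279 CPM in W1, W2 and W3. One library of each genotype, M2 and W1, stood above the other 4. Its log2 fold change was 0.02 (SE 0.18, adjusted p = 0.958) and its 95% interval of -0.39 to 0.44 lay within a 2-fold change in either direction, though the sign turned without M2, W2 or W3. Top2a, the topoisomerase that untangles sister chromatids, was at 96.0, 119 and 108 CPM in M1, M2 and M3 and at 123, 86.3 and 91.4 CPM in W1, W2 and W3, also with W1 and M2 highest and overlapping groups.

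Kif11, the motor that pushes spindle poles apart, was the only G2/M gene whose groups did not overlap. It was at 25.7, 23.9 and 28.6 CPM in M1, M2 and M3 and at 19.1, 20.2 and 20.5 CPM in W1, W2 and W3, each mutant library above each wildtype one. The log2 fold change of 0.39 (SE 0.15, 95% interval 0.05 to 0.72) did not pass (adjusted p = 0.15). Aurkb, the kinase of the chromosomal passenger complex, had the same fold change with an SE of 0.40 and ran from 7.20 to 15 CPM in mutant and from 5.62 to 11.9 CPM in wildtype.

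Plk1 and Ccnb2 had the lowest fold changes of the role. Plk1, a kinase of mitotic entry, was at 6.43, 13.4 and 10.9 CPM in M1, M2 and M3 and at 20.3, 13.6 and 13.3 CPM in W1, W2 and W3. M1 was lowest and W1 highest, M2 stood beside W2 and W3, and the log2 fold change of -0.62 (SE 0.31, adjusted p = 0.277) did not pass. Ccnb2, one of the B-type cyclins, was at 10.8, 13.2 and 9.0 CPM in M1, M2 and M3 and at 12.8, 17.9 and 14.9 CPM in W1, W2 and W3. M2 was above W1, and the log2 fold change was -0.47 (SE 0.23, 95% interval -0.99 to 0.06, adjusted p = 0.264).

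The other mitotic members had overlapping groups and log2 fold changes between -0.11 and 0.14. Ccnb1, the main mitotic cyclin, ran from 13.8 to 14.9 CPM in mutant and from 12.8 to 15.9 CPM in wildtype, and Ccna2, the cyclin of S phase and G2, from 25.2 to 29.2 and from 24.4 to 27.0 CPM. Cdk1 was at 7.65 to 12.9 CPM in mutant and 7.66 to 14.3 CPM in wildtype. The spindle checkpoint gene Bub1b was at 22.4 to 32.2 and 26.9 to 30.7 CPM, while Bub1, its relative, ran from 1.78 to 7.94 and from 4.48 to 7.21 CPM, with M1 lowest. Cdc20, the activator of the anaphase-promoting complex, was at 24.9 to 28.9 CPM in mutant and 22.7 to 28.5 CPM in wildtype. Aurka, the kinase of the spindle poles, ran from 7.38 to 9.55 and from 6.76 to 9.25 CPM. Tpx2, its activator on the spindle, ran from 35.4 to 44.3 and from 32.6 to 39.8 CPM, and Birc5, the passenger protein survivin, from 7.70 to 17.0 and from 10.1 to 13.1 CPM.

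Beyond the members, 13 lists of other cell cycle genes held 237 genes, of which 234 were tested. Of these, 3 rose and 1 fell (1.71% called, against 10.1% of all genes tested), with a median log2 fold change of 0.10. The lists of origin licensing (23 tested), replication fork enzymes (27), E2F and pocket proteins (18), mitotic spindle (24), condensin and cohesin (16), APC/C (24) and checkpoint kinases (14) had 0 genes called in either direction by edgeR's quasi-likelihood test. The same held for the lists of other inhibitors (8), the Myc family (9) and other cyclins (10). Over all 13 lists 19 of the 234 genes were at an unadjusted p under 0.05. Of all genes tested at least 10.1% were, since a called gene is also below 0.05 unadjusted. Medians of the other lists ran from -0.04 to 0.23, and the kinetochore list (28 tested, 1 lower) had the highest at 0.29. The groups of libraries did not overlap, with mutant lower, for 24 of the 234 genes (10.3%), against 14.7% of all genes tested, and by list this share ran from 0 to 29.2% (7 of the 24 APC/C genes). With mutant higher they did not overlap for 21 (8.97%), against 17.1% of all genes tested. By list that share ran from 4.17% (APC/C) to 22.2% (2 of the 9 Myc family genes).

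Samhd1, whose product hydrolyses deoxynucleotides and so lowers their pool, rose and was the 1 gene of 15 called in the nucleotide list. It was at 133, 88.6 and 105 CPM in M1, M2 and M3 and at 25.4, 27.0 and 32.3 CPM in W1, W2 and W3. The lowest mutant library was well above the highest wildtype library, the level was 3.86 times higher in mutant, and the log2 fold change was 1.95 (SE 0.18, adjusted p = 0.00092). Samhd1 is also abundant in myeloid cells. It was called under all 18 alternatives. Bub3, which with Bub1 and Bub1b forms the spindle checkpoint, fell: it was at 14.4, 18.5 and 14.9 CPM in M1, M2 and M3 and at 23.6, 31.3 and 29.1 CPM in W1, W2 and W3. All mutant libraries were lower, with a log2 fold change of -0.81 (SE 0.18, adjusted p = 0.0274), and the call was lost without M1, M3, W2 or W3 (adjusted p = 0.0793 to 0.133).

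Of the 18 tested genes of p53 and its targets, 2 rose (11.1%, against 5.59% of all genes tested) and 0 fell, apart from Cdkn1a, which is a member above. Eda2r, a receptor of the TNF receptor family, had 32, 19 and 42 counts in M1, M2 and M3 and 0 in each wildtype library, at least 29.6-fold higher in mutant, taking 3 counts over the 3 wildtype libraries as the floor (adjusted p = 0.0139). Pmaip1, which encodes the pro-apoptotic protein Noxa, had 60, 43 and 92 counts in mutant and 6, 0 and 2 in W1, W2 and W3 (log2 fold change 4.45, SE 0.94, adjusted p = 0.0225). Both calls rested on few counts: without any 1 of the mutant libraries neither passed (adjusted p = 0.051 to 0.108), and Pmaip1 was also lost without W3 (0.0635). The other targets did not follow 1 direction. Of all 18 tested genes of this list 9 were above 0 and 9 below, and the lowest log2 fold change was -1.22, in a gene not named here and not called. Trp53 itself was at a log2 fold change of 0.33 (adjusted p = 0.342), Mdm2 at -0.15 (0.522), Ccng1 at -0.27 (0.257), Phlda3 at -0.46 (0.0505) and Plk3 at 1.08 (0.114).

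The libraries also differed in markers of other cell types, whose part in the members' values was not tested. Of 8 corneal epithelial markers, 4 fell and 2 rose, and their summed level was 24790 to 29330 CPM in mutant and 38500 to 52150 CPM in wildtype. Of 9 tested leukocyte markers (10 listed) 8 rose, with sums of 225 to 275 CPM in mutant and 49.1 to 58.7 CPM in wildtype, and of 4 tested T and NK cell markers (9 listed) 2 rose, with sums of 6.92 to 19.9 CPM and 0.428 to 1.76 CPM. Of 8 tested conjunctival and goblet cell markers 6 rose (16300 to 17620 CPM against 5167 to 8610 CPM). Most of these sums was Muc4, which was not called, at 9928 to 10433 CPM in mutant and 4605.5 to 8235 CPM in wildtype. Of 10 keratocyte markers 5 rose, with sums of 4919, 2032 and 832 CPM in M1, M2 and M3 and 367 to 441 CPM in wildtype. M1 was the highest library for all 10. Markers of vessel endothelium and of melanocytes gave 0 calls, but their sums were 0.738 and 9.82 CPM in W1, against 31.0 to 52.6 and 188 to 305 CPM in W2 and W3 and 41.4 to 109 and 235 to 413 CPM in mutant. Of 6 corneal endothelial markers 1 rose. Of the T and NK cell markers Cd8a, Trac and Nkg7 had 0 counts in every wildtype library.

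Of the 42 members, 16 overlap an exon of another gene, 15 of them on the opposite strand, and 7 have over 10% of their exon bases overlapped. Among these are Cdkn1c (30.7%), Ccnd1 (23.4%), Cdk4 (19.7%), Ccne2 (17.4%), Rb1 (14.9%), Mcm7 (12.6%) and Ccna2 (12.5%), while Cdkn1a has 7.68% overlapped. No source used here gives the strand option of the counting, so reads of an overlapping gene may be missing from, or counted in, the values of these members, and the size of this was not tested.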

How the data were processed

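Total RNA of mouse corneas was made into libraries with a stranded kit for very small inputs and sequenced as paired reads of 100 nucleotides, per the labels' protocols. The submitters' processing notes name Trim Galore, HISAT2, SAMtools, HTSeq, edgeR and the build GRCm38. Tool versions and strandedness of counting: not given in the sources used here (labels and notes). The authors deposited raw counts per Ensembl gene, 1 file per library, with no normalization. Lines that name no gene held 53.3% of all counts and were left out. Of 55421 IDs, 55240 matched GENCODE release M21 on the same build, which gave symbols, positions and exon lengths.

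Counts were analysed with edgeR 4.0.16 in R 4.3.3. filterByExpr (minimum count 10, minimum total 15) left 15209 genes, libraries were scaled by TMM, and all 6 libraries entered 1 quasi-likelihood fit with genotype as its only term. P-values were adjusted by Benjamini-Hochberg over all genes tested, at 0.05. Intervals are 95% intervals of the log2 fold change from that fit. A floor is 3 counts over a group (0.0530 CPM in mutant, 0.0556 CPM in wildtype) and covers counting error only, as reads carry no molecular tags. The script was tested on simulated data. Alternatives were other scalings, DESeq2 1.42.0, limma-voom (limma 3.58.1), other filters and thresholds, and leaving out libraries.

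The members and the gene lists were chosen with earlier results of these data known. Named with values in every library are members past adjusted p 0.05 and, per role, the 3 others with the smallest p and the one with the highest level per kilobase, and of each other list up to 3 called genes; Mki67, Mcm6 and Cdkn2b enter by level. Ccnd2, Mcm5, Cdkn1b and Top2a were named besides, to complete their families. Of the genes of the p53 list that were not called, only Trp53, Mdm2, Ccng1, Phlda3 and Plk3 were named.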

Additional observations from a re-analysis of the deposited data

How the results depend on the processing

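Results were recomputed under 18 alternatives, of which 1 was chosen after seeing the data, leaving out M1 and W1 together. All genes called higher (850) and lower (679) became 1325 and 1033 with DESeq2, 1588 and 1137 with no low-count filter, 307 and 261 at an adjusted p of 0.01, and 363 and 211 against a fold limit of 1.5. Leaving out 1 library gave 340 to 1227 higher and 271 to 847 lower. Members called lower (2), and likewise the G1 cyclin (1) and the inhibitor (1), became 0 at an adjusted p of 0.01 and 0 against the fold limit. Leaving out 1 library gave 0 to 2 members lower, with 0 to 1 in each of the 2 roles. Without M1 and W1, 3 members were called higher, all 3 of S phase, but leaving out these libraries raises the S phase difference by construction. Other cell cycle genes called higher (3) became 13 with sample quality weights, 6 with no filter, 1 at an adjusted p of 0.01 and 16 without M1 and W1, and ran from 1 to 12 on leaving out 1 library. Cdt1, Clspn, Pola2, Cad, E2f8, Tfdp1, Plk3 and Myc, not called in the main fit, were called with quality weights and also without W1. Over all genes tested, 1202 and 1227 were called higher under these settings, against 850. Those called lower (1) became 3 with RLE factors, 4 with upper-quartile factors, 2 without composition factors, 5 with DESeq2, 4 with quality weights, 5 with no filter, 3 with a minimum of 1 CPM, 0 at an adjusted p of 0.01, 0 against the fold limit and 2 without M1 and W1, and ran from 0 to 1 on leaving out 1 library. Cell type markers called higher became 44 with no filter and 14 at an adjusted p of 0.01. The cause of these changes was not tested, beyond the fewer samples and stricter thresholds themselves. The sign of the log2 fold change turned for Mcm6 (-0.01 without M2, -0.02 without M3, -0.24 without W3), for Mki67 (-0.0088 with upper-quartile factors, -0.14 without M2, -0.04 without W2, -0.08 without W3) and for Cdk6 (-0.02 without W2, -0.01 without W3), none of which passed the test under any setting. On leaving out libraries their values ran from -0.24 to 0.75, from -0.14 to 0.22 and from -0.018 to 0.39. Ccnd1 and Cdkn1a were lower in mutant under all alternatives. No paired analysis was possible because the genotypes share no sample number in the labels: the replicate numbers used here follow the order of the samples and tie no mutant library to a wildtype one. Each genotype had 3 libraries, and the median SE of the S phase genes was 0.45 on the log2 scale. At that SE, an unadjusted 95% interval mostly does not exclude 0 for differences under about 2-fold. For 12 of the 16 S phase genes the interval reached past a 2-fold change. A call by adjusted p is stricter than that interval, so S phase differences of 2-fold or somewhat more could also go uncalled.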

Other observations

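Histone genes of the replication-dependent clusters are transcribed in S phase and were not among the members. This list was chosen after the members' values had been seen. Of 70 histone genes listed, 61 were tested, 0 rose and 2 fell (Hist1h4h and Hist4h4), and the median log2 fold change was -0.0018. Of all genes tested, 5.59% were called higher and 4.46% lower, so these 2 were no excess. Their summed level was 928, 1235 and 1158 CPM in M1, M2 and M3 and 981, 1435 and 1201 CPM in W1, W2 and W3, with overlapping groups. Relative to the mean of the 6 libraries, the median histone gene stood at -0.34, 0.28 and 0.19 in M1, M2 and M3 and at -0.40, 0.31 and -0.0025 in W1, W2 and W3, on the log2 scale. By this median, M1 was below and M2 and M3 above the mean for both these genes and the S phase members, whereas W1 was the lowest library for the histones and the highest for the S phase members. By summed level the lowest library for the histones was M1. Histone genes are near-identical copies, and reads that align to several places were not counted, so single histone genes are uncertain.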
